A study of Mus musculus with 6 samples.

Results

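The genes described here are 49 interferon-stimulated genes and regulators of the interferon response, taken by gene symbol from a written list. Its members were chosen with earlier results of these data known. Each of the 49 symbols matched exactly 1 of the 23282 entries in the deposited count files. Per the labels, the RNA came from BMOL cells, a mouse liver progenitor cell line. The RNA was read by QuantSeq, which counts reads near the 3′ end of polyadenylated transcripts. A first group of 3 libraries carried a vector control, and a second group of 3 carried constructs expressing TXNIP, the thioredoxin-interacting protein. Both groups share the same line and tissue label, no time or dose is given, and the labels name neither the promoter of the construct nor any clonal selection. Levels are given in CPM, the usual read count scaled to the size of its library, here the size after adjustment by trimmed mean of M-values. The 3 libraries labelled TXNIP overexpression are called the TXNIP libraries.

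Type I interferons bind a receptor made of IFNAR1 and IFNAR2, and interferon-gamma binds one made of IFNGR1 and IFNGR2. Kinases on these receptors phosphorylate STAT proteins, and STAT2 and IRF9 take part in a complex that binds the interferon-stimulated response element (ISRE) in the promoters of antiviral genes. The products of those genes restrict virus entry, degrade or edit RNA, sense foreign nucleic acid, or feed back on the pathway itself, and in liver they are best known from the response of hepatocytes and macrophages to viral infection.

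The libraries held 8725624 to 15119775 reads, so that 1 read was worth 0.0653 to 0.119 CPM. Txnip was at 38.3, 9.63 and 10.8 CPM in the controls and at 217, 299 and 290 CPM in the TXNIP libraries, a log2 difference of 3.82 ± 0.46 (SE; edgeR adjusted p = 2.8e-05). That difference was 4.71 without control replicate 1, and the labels do not say whether the construct carries the 3′ end that was counted. In most of the ductular and progenitor markers tested, the TXNIP libraries went against their label of a progenitor epithelium. The epithelial keratin Krt18 was at 516 ± 73.7 CPM in the controls (SD, n = 3) and had 1 read in the TXNIP libraries, Krt19 had 2 reads there, and Sox9, a duct and progenitor factor at 74.7 ± 16.6 CPM in the controls, had none. Of 12 ductular and progenitor markers, 9 could be tested, 8 fell and 1, Spp1, rose (all tested genes: 30.6% higher, 33.9% lower). Epcam, at 0.653 to 2.53 CPM in the controls, had no read in the TXNIP libraries. Of 8 hepatocyte markers 4 could be tested: Afp rose, Hnf4a and Ttr fell, and Alb did not pass. Afp went from 11.1 ± 4.46 to 102 ± 8.39 CPM, and Hnf4a from 35.5 ± 15.6 CPM to no read. Of 6 endothelial markers 1 could be tested and fell, and of 6 stellate cell and fibroblast markers 1 could be tested and rose. All 15 macrophage and leukocyte markers rose, and their summed level was 72.8 to 92.5 CPM in the controls and 7963 to 8429 CPM in the TXNIP libraries. Among them Itgam, Adgre1, Ctss and Cd52 had no read in the controls. Of 11 T, NK and B lymphocyte markers, 1 (Lck) had enough reads to be tested, and the summed level of all 11 was 0.0653 to 1.43 CPM in the controls and 2.80 to 5.44 CPM in the TXNIP libraries. Of 6 plasmacytoid dendritic cell markers, 3 (Siglech, Ccr9 and Klk1) had no read in any library and Tcf4, Cox6a2 and Bst2 rose, with a summed level of 68.1 to 76.4 CPM against 140 to 194 CPM. Bst2 is itself one of the 49 members, its groups overlapped, and it did not pass when any of 4 libraries was left out alone. The leukocyte markers therefore moved with every difference between the groups given here, and their part in the results was not tested. In RNA from whole cultures, fewer cells of a type and less RNA per cell cannot be told apart. In both groups replicate 1 stood farther from the other two than those stood from each other (chi-square per degree of freedom 23.1 to 28.3 against 6.4 to 6.51). Nothing in the labels says that libraries of the same group are separate cultures, so the p-values measure only the spread between these libraries.

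The letters of the ISRE were looked up in the RefSeq promoter windows of the members (GRCm38.p6, from 250 bases before to 50 bases after an annotated start). The core searched was GAAA, any 2 bases and GAAA again on the strand of the gene, or its reverse complement TTTC, any 2 bases and TTTC, and overlapping matches were all kept. Windows were matched to 41 of the 49 members. The core stood in at least 1 window of 16 of the 41 (39%), against 3.99% of the 27025 genes with a window, or in 31.4% of the members' 51 windows against 3.44% of all 32851. Of the 16, 12 were higher in the TXNIP libraries, 1 (Ifit3) was lower, 1 (Irf2) did not pass the test and 2 (Gbp2 and Gbp3) had too few reads to be tested. Over all tested genes 30.6% were higher and 33.9% lower (64.5% called). Of the 25 members with a window but no core, 17 were higher, 3 lower, 3 not past the test and 2 not tested. The gamma-activated site TTCNNNGAA, which reads the same on both strands, was in 14 of the 41 members (34.1%) against 9.55% of all genes. A match is a description of the letters and not evidence of a bound factor. The members were listed as interferon-stimulated genes and their regulators. A share of cores above that of all genes therefore describes the list and is no test of the differences between the groups. Stretches of 90 bases upstream of the start are printed for 6 members, 5′ to 3′ on the strand of the gene, with the cores in capitals. The first pair shows that a member that rose and a member that fell hold the same letters, and the other 4 show the core in both orientations and as overlapping copies.
Ifit1, chr19:34640750-34640839, plus strand: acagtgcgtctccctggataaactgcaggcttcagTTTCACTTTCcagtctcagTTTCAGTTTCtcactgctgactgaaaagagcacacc
Ifit3, chr19:34583338-34583427, plus strand: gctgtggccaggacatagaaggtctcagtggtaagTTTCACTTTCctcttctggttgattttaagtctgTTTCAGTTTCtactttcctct
Isg15, chr4:156200842-156200931, minus strand: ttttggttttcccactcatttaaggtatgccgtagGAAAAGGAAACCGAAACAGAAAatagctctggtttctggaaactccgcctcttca
Bst2, chr8:71537548-71537637, minus strand: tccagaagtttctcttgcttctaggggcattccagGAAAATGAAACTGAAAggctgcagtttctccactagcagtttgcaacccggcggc
Oas3, chr5:120777680-120777769, minus strand: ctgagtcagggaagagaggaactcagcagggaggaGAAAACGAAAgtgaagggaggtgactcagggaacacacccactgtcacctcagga
Rsad2, chr12:26456518-26456607, minus strand: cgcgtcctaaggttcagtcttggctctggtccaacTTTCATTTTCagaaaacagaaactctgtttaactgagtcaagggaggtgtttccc

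In Ifit1 the pair TTTCACTTTC and TTTCAGTTTC began 104 and 85 bases before the start, and in Ifit3 the same pair began 156 and 122 bases before it. Neither window of Ifit2, the other member of the family that fell, held an exact match to the core. An element with other letters or outside the windows would have been missed, in Ifit2 as in any member without a match. Isg15 held 3 overlapping cores that began 78, 72 and 66 bases before the start, and Bst2 held 2 that began 130 and 124 bases before it. The core of Oas3 lay 75 bases and that of Rsad2 120 bases before the start.

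**Figure D1:**
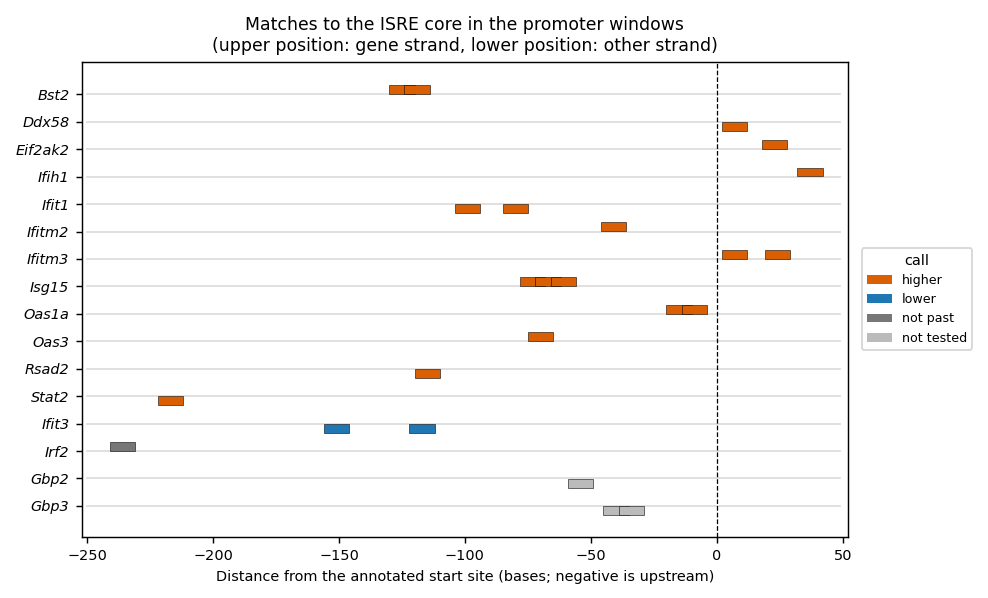
Distance in bases of each match to the ISRE core from the annotated start site (dashed line) for the 16 members that hold one, with the gene strand above and the other strand below each line. Colour gives the result of the test: the 12 members that were higher, Ifit3 that was lower, Irf2 that did not pass and the 2 that were not tested hold matches between 241 bases before and 41 bases after the start.

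Most of the members with enough reads were higher in the TXNIP libraries. Of the 44 members tested, 36 were higher and 4 were lower (Ifit2, Ifit3, Irf1 and Ifngr1) at an adjusted p under 0.05 in edgeR's quasi-likelihood test, while 30.6% of all 12088 tested genes were higher and 33.9% were lower (64.5% called in either direction). Isg20, Irf2, Irf3 and Ifnar1 did not pass. The members were chosen with earlier results of these data known, so these counts describe the list and do not test it. The 6 libraries fell apart by group without overlap for 35 tested members in the higher direction (33.6% of all genes) and for 4 in the lower direction (36.8% of all genes, and 70.4% in either direction). The median log2 difference of the 44 tested members was 2.63 (quartiles 1.08 and 5.66, with members that had no control read at their lower bound), and that of all tested genes was -0.04 (quartiles -0.90 and 0.71). Ifitm6, Ifi44, Mx2, Oas2, Oas3 and Sp100 had no read in the controls and passed the filter on low counts through the TXNIP libraries alone. Ifitm3, Ifit1, Usp18, Oas1a, Oasl1, Rsad2, Dhx58 and Irf7 had few control reads and also could not have passed that filter on their controls. Without that filter 39 of 48 members were higher and 4 were lower, against 3785 higher and 4460 lower of all 15944 genes then tested. The 5 members not tested were Ifitm1, Mx1, Oasl2, Gbp2 and Gbp3. With both replicate 1 libraries left out, 37 of 46 members tested were higher and 4 were lower. Of all 12349 genes then tested, 4022 were higher and 4469 were lower.

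**Figure D2:**
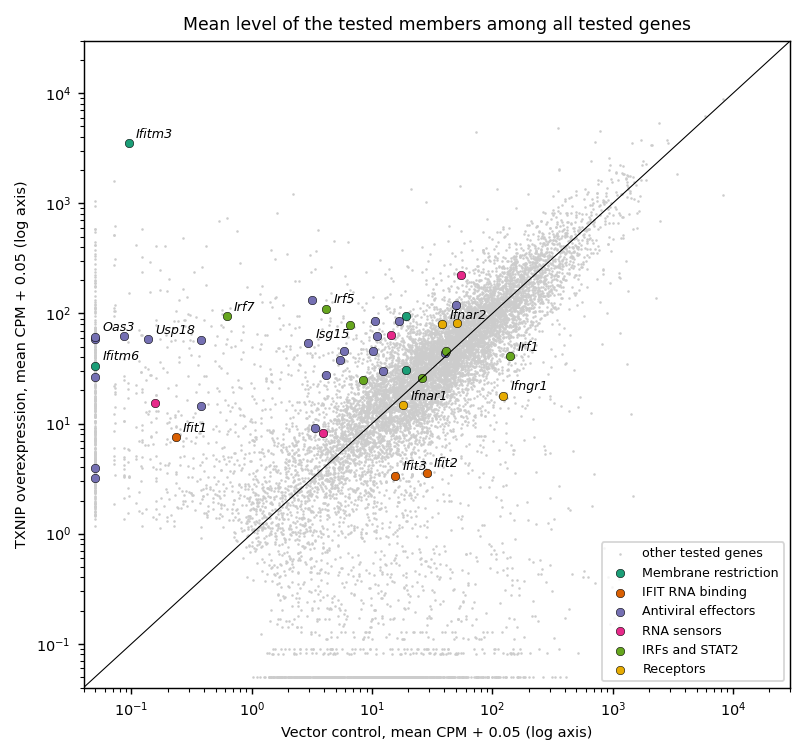
Mean CPM plus 0.05 of each tested gene in the vector control (x, log axis) and in the TXNIP libraries (y, log axis), with the diagonal marking equal levels and the 44 tested members coloured by role. Most coloured points lie above the diagonal, Ifitm3 farthest from it, and Ifit2, Ifit3, Irf1 and Ifngr1 lie clearly below it.

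The summed level of the 49 members was 736 to 833 CPM in the controls and 5495 to 6030 CPM in the TXNIP libraries, and without Ifitm3 alone it was 2177 to 2285 CPM in the TXNIP libraries. Ifitm3 thus made up the larger part of the sum there. At most 3 reads over the controls together with at least 5 CPM in the TXNIP libraries were found for 6 members (Ifitm3, Ifitm6, Ifi44, Oas1a, Oas2 and Oas3), a pattern held by 2.52% of all tested genes. No member showed the reverse, at most 3 reads in the TXNIP libraries and at least 5 CPM in the controls, which 5.05% of all tested genes did.

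**Figure D3:**
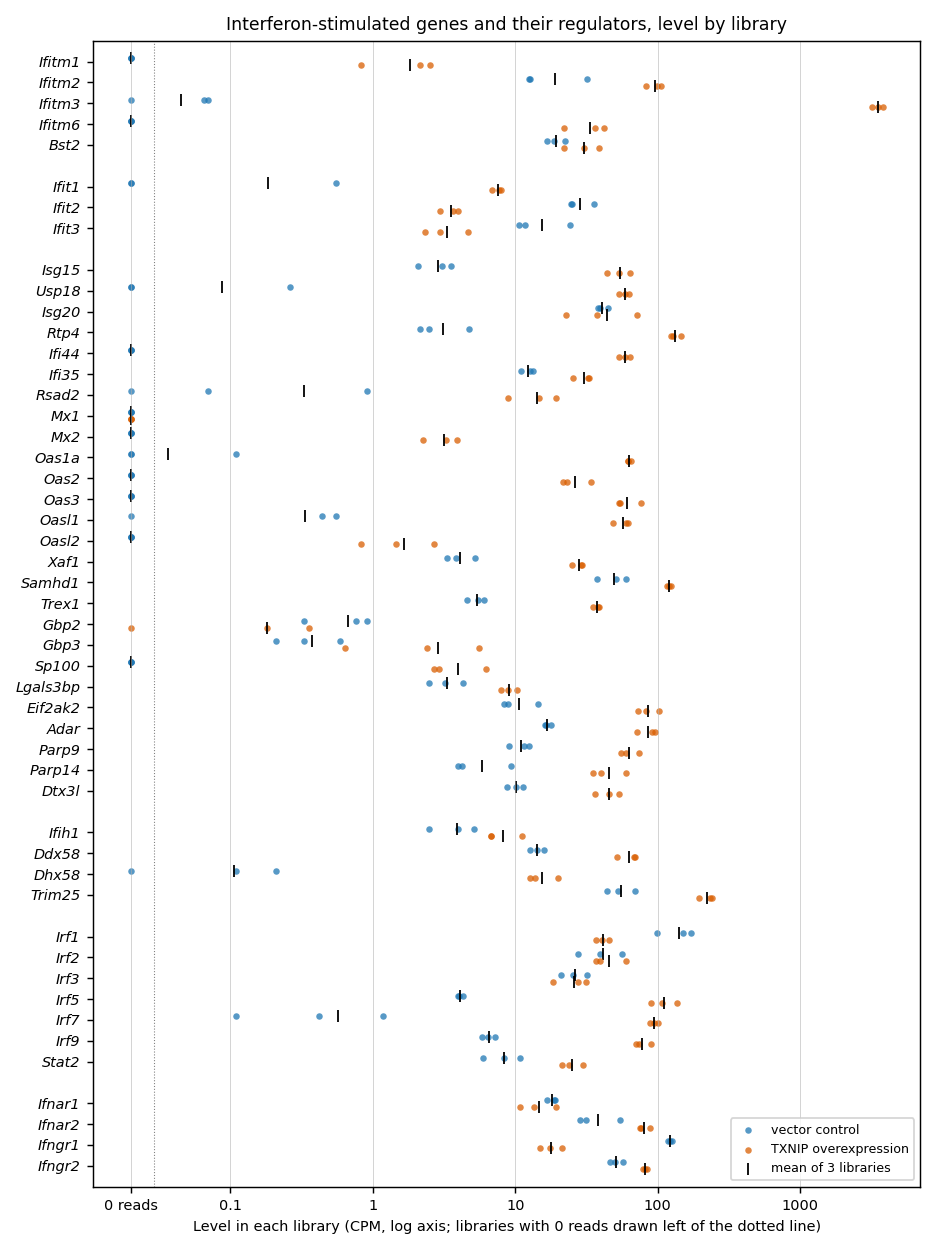
Level of each of the 49 members in each of the 6 libraries (CPM, log axis), with vector control in blue, TXNIP overexpression in orange and the mean of 3 libraries as a black tick. Libraries with 0 reads are drawn left of the dotted line, where 9 members have all 3 controls and Mx1 has every library.

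The IFITM proteins are small membrane proteins that hinder the fusion of virus with the endosome, and BST2 (tetherin) holds budding virus at the cell surface. Of these 5 members, 4 could be tested and all 4 rose (all tested genes: 30.6% higher, 33.9% lower). The 4 Ifitm genes lie within 63.1 kb on chromosome 7 (140954837 to 141017924, GRCm38, GENCODE M21). Ifitm3 had 0, 1 and 1 reads in the controls and was at 3210.0, 3508 and 3803 CPM in the TXNIP libraries. The groups were far apart, and the ratio of the pooled reads was 68599 (exact 95% interval 18990 to 566450, counting error only; edgeR adjusted p = 5.47e-12). Ifitm6 had no control read and was at 22, 36.4 and 42.3 CPM, at least 434-fold higher against a floor of 3 reads over the control group (0.0773 CPM; edgeR adjusted p = 9.62e-08). Ifitm2 was present in every library, at 32, 12.5 and 12.7 CPM in the controls, against 105, 82.6 and 99.5 CPM in the TXNIP libraries. The groups did not overlap, although control replicate 1 was more than double the other controls, and the mean rose 5.02-fold (log2 2.35 ± 0.32; edgeR adjusted p = 8.33e-05). The 3′ end of Ifitm2 shares 32.6% of its 75-base words with other annotated genes, among them Gm45717, so its reads are uncertain. Ifitm1 had no control read and was at 0.832, 2.13 and 2.54 CPM in the TXNIP libraries, at least 23.7-fold higher, with too few reads to be tested.

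Bst2 was the member of this set with the smallest difference. It was at 22.3, 18.6 and 16.7 CPM in the controls and at 39.0, 22 and 30.4 CPM in the TXNIP libraries. The lowest TXNIP library lay within the range of the controls, and the log2 difference was 0.66 ± 0.23 (edgeR adjusted p = 0.0217). Bst2 no longer passed the edgeR test when TXNIP replicate 1 (adjusted p = 0.0918), TXNIP replicate 3 (0.0531), control replicate 2 (0.0604) or control replicate 3 (0.0824) was left out. Its promoter stretch with overlapping ISRE cores is printed above.

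The IFIT proteins bind viral RNA, and the family split: 1 of the 3 members rose and 2 fell (all tested genes: 30.6% higher, 33.9% lower). Ifit2, Ifit3 and Ifit1 lie in the same direction within 99.3 kb on chromosome 19 (34550694 to 34650009, GRCm38). Ifit1, which recognises RNA caps that lack methylation, had 5 reads in control replicate 1 and none in the other two, and was at 6.89, 7.64 and 7.98 CPM in the TXNIP libraries. Every TXNIP library was above every control, and the mean rose 40.9-fold from 0.183 ± 0.317 to 7.50 ± 0.557 CPM (SD, n = 3; log2 5.66 ± 0.84; edgeR adjusted p = 8.26e-05). The size rests on few control reads: the log2 difference was 9.48 without control replicate 1, 5.01 without control replicate 2 and 4.97 without control replicate 3.

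Ifit2, a partner of the other IFIT proteins, went the other way. It was at 35.6, 25 and 24.8 CPM in the controls and at 2.97, 3.97 and 3.63 CPM in the TXNIP libraries, with no overlap. The mean was 8.08-fold lower (log2 -3.00 ± 0.25; edgeR adjusted p = 5.56e-07). Ifit3, a scaffold that binds IFIT1, was at 24.2, 10.6 and 11.8 CPM in the controls and at 2.97, 2.32 and 4.63 CPM in the TXNIP libraries. Again the groups did not overlap, and the mean was 4.69-fold lower (log2 -2.21 ± 0.39; edgeR adjusted p = 0.000347). The end of Ifit3 shares 9.86% of its 75-base words with its near copy Ifit3b, which was at 2.44 ± 1.89 CPM in the controls and 0.828 ± 0.15 CPM in the TXNIP libraries and did not pass the test (adjusted p = 0.0610). Ifit1 and Ifit3 thus moved in opposite directions while holding the same pair of ISRE cores in their promoter windows.

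The largest set holds the ISG15 system, the Oas and Mx families and other effectors. Of its 26 members 22 could be tested, 21 rose, none fell and Isg20 did not pass (all tested genes: 30.6% higher, 33.9% lower). All 15 leukocyte markers rose in the same libraries. ISG15 is a ubiquitin-like protein that is attached to other proteins, and USP18 removes it and also restrains the type I receptor. Isg15 was at 3.52, 2.08 and 3.07 CPM in the controls, against 64.2, 53.8 and 43.8 CPM in the TXNIP libraries, 18.7-fold higher on average with no overlap (log2 4.24 ± 0.25; edgeR adjusted p = 1.89e-08). Usp18 had 4 reads in control replicate 3, none in the other controls, and was at 63.1, 53.8 and 58.8 CPM in the TXNIP libraries. Its TXNIP libraries were close to each other, and the mean rose from 0.0871 ± 0.151 to 58.5 ± 4.67 CPM (672-fold; log2 9.01 ± 0.43; edgeR adjusted p = 2.85e-09). That log2 difference became 12.28 without control replicate 3 and 8.39 without control replicate 2. Isg20, an exonuclease that degrades RNA, was at 44.6, 38.0 and 39.5 CPM in the controls, against 72.0, 22.6 and 37.5 CPM in the TXNIP libraries. The TXNIP libraries lay on both sides of the controls, and the log2 difference was 0.11 (95% interval -0.62 to 0.84; edgeR adjusted p = 0.788).

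OAS enzymes make short chains of adenylate when they bind double-stranded RNA, and these chains activate RNase L. Oas2, Oas3 and Oas1a lie within 177.2 kb on chromosome 5 (120730333 to 120907521), and Oasl1 and Oasl2 lie elsewhere on the same chromosome (114896936 to 114937915, GRCm38). Oas2 had no control read and was at 23.2, 21.8 and 34.2 CPM in the TXNIP libraries, at least 341-fold higher. Oas3 also had no control read and was at 54.4, 53.1 and 76.1 CPM, at least 792-fold higher. In both genes TXNIP replicate 3 was the highest library, and neither gene had a read in any control. Oas1a had a single read in control replicate 1 and was at 61.8, 62.2 and 64.9 CPM in the TXNIP libraries, a ratio of pooled reads of 2450 (exact 95% interval 439 to 96824; edgeR adjusted p = 3.55e-10), and its fitted log2 difference of 10.74 became 12.55 without that control. The end of Oas1a shares 46% of its 75-base words with Oas1g, which had 1 control read and was at 62.1 ± 7.2 CPM in the TXNIP libraries, so the authors' counting could have split reads between the copies. Oasl1, which lacks the synthase activity and limits translation of Irf7, was at 0.440, 0.554 and 0 CPM in the controls, against 48.4, 60.4 and 61.7 CPM in the TXNIP libraries. Here too the groups were far apart, with a mean 171-fold higher (log2 7.46 ± 0.44; edgeR adjusted p = 2.68e-08). The log2 difference of Oasl1 was 8.31 without control replicate 2 and 6.77 without control replicate 3. Oasl2 had no control read and was at 0.832, 2.71 and 1.45 CPM in the TXNIP libraries, at least 21.5-fold higher but too low to be tested.

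MX proteins are GTPases that trap viral nucleocapsids. Mx1 had no read in any of the 6 libraries, which allows up to 0.0773 CPM over the controls and 0.101 CPM over the TXNIP libraries. Mx2, which GENCODE M21 annotates as a polymorphic pseudogene, had no control read and was at 3.92, 3.29 and 2.27 CPM in the TXNIP libraries, at least 40.9-fold higher (edgeR adjusted p = 6.91e-05). The neighbouring pair on chromosome 16 thus held 1 gene that was read at a low level and 1 that was not read.

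Other effectors with few control reads rose by large factors. Ifi44 had no control read and was at 63.6, 59.0 and 53.5 CPM in the TXNIP libraries, at least 760-fold higher (edgeR adjusted p = 2.33e-09). Sp100, a component of nuclear bodies, had no control read and was at 6.18, 2.71 and 2.90 CPM, at least 50.9-fold higher. Rsad2 (viperin), which makes a nucleotide that ends viral RNA chains, had 0, 1 and 14 reads in the controls and was at 19.3, 14.7 and 8.89 CPM in the TXNIP libraries. All TXNIP libraries of Rsad2 were above the controls (log2 5.22 ± 0.71; edgeR adjusted p = 6.24e-05), and the log2 difference was 8.04 without control replicate 3, which held 14 of the 15 control reads, and 4.53 with both replicate 1 libraries left out. Rtp4, a chaperone of membrane receptors, was at 4.73, 2.50 and 2.16 CPM in the controls, against 147, 124 and 127 CPM in the TXNIP libraries. Its mean rose 42.5-fold without overlap (log2 5.47 ± 0.25; edgeR adjusted p = 1.96e-09).

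A further 10 effectors were read in every control and rose 2.42-fold to 8.11-fold on average, each without overlap between the groups. Eif2ak2 (PKR), a kinase that stops translation on binding double-stranded RNA, had a mean of 10.6 ± 3.34 CPM in the controls and 85.7 ± 15.7 CPM in the TXNIP libraries (SD, n = 3), and was 8.11-fold higher. Adar, which edits adenosine to inosine in double-stranded RNA, went from 16.7 ± 0.938 to 86.1 ± 13.2 CPM. PARP9 and DTX3L form a ubiquitin ligase complex, and PARP14 is a related ADP-ribosyltransferase. Their 3 genes lie within 139.7 kb on chromosome 16 (35832874 to 35972605, GRCm38). Parp9 was at 11.5, 9.08 and 12.5 CPM in the controls, against 73.3, 60.0 and 55.6 CPM in the TXNIP libraries, Dtx3l went from 10.1 ± 1.30 to 45.2 ± 8.82 CPM and Parp14 from 5.85 ± 3.03 to 45.1 ± 13.2 CPM. The 3 neighbours thus rose together, by 5.71-fold, 4.49-fold and 7.72-fold.

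Trex1, the exonuclease that clears cytosolic DNA, went from 5.36 ± 0.727 to 37.5 ± 1.85 CPM and was 6.99-fold higher. Its whole annotated 3′ end is shared with transcripts of Atrip, so the assignment of those reads is uncertain, and Atrip itself was at 10.1 ± 1.20 and 12.4 ± 2.08 CPM and did not pass the test (edgeR adjusted p = 0.312). Xaf1, which binds the apoptosis inhibitor XIAP, rose 6.76-fold from 4.12 ± 0.977 CPM. Samhd1, which depletes the nucleotides that viruses need for DNA synthesis, rose 2.42-fold from 49.5 ± 11.3 CPM. Lgals3bp, a secreted glycoprotein, rose 2.72-fold and Ifi35 rose 2.46-fold.

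The GTPases GBP2 and GBP3 attack the membranes of vacuoles that hold pathogens, and both genes were too low to be tested. Gbp2 was at 0.330, 0.762 and 0.914 CPM in the controls and at 0.356, 0 and 0.181 CPM in the TXNIP libraries, and the groups overlapped. Gbp3 was at 0.330, 0.208 and 0.588 CPM in the controls and at 5.59, 2.42 and 0.635 CPM in the TXNIP libraries. The groups of Gbp3 did not overlap, but TXNIP replicate 3 was close to the highest control.

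All 4 members of the RNA sensing set rose: the cytosolic sensors Ddx58, Dhx58 and Ifih1, and Trim25, which activates a sensor. Over all tested genes 30.6% were higher and 33.9% were lower. RIG-I (Ddx58 in the files), which detects short double-stranded RNA with a free end, was at 14.3, 12.8 and 15.8 CPM in the controls, against 68.9, 51.8 and 68.4 CPM in the TXNIP libraries. The groups were apart, with a mean 4.41-fold higher (log2 2.14 ± 0.18; edgeR adjusted p = 5.16e-07). LGP2 (Dhx58), which modulates the other sensors, had 1, 3 and 0 reads in the controls and was at 13.8, 19.8 and 12.7 CPM in the TXNIP libraries. It was 146-fold higher on average (log2 7.08 ± 0.57; edgeR adjusted p = 3.28e-07), and the log2 difference was 8.18 without control replicate 2 and 6.42 without control replicate 3. MDA5 (Ifih1), which detects long double-stranded RNA, was at 3.96, 2.50 and 5.16 CPM in the controls, against 11.2, 6.77 and 6.8 CPM in the TXNIP libraries. The groups did not overlap, yet the gap was narrow (log2 1.08 ± 0.38; edgeR adjusted p = 0.0247), and it did not pass with TXNIP replicate 1 left out (adjusted p = 0.110), with control replicate 2 left out (0.0926) or with both replicate 1 libraries left out (0.102). Trim25, a ubiquitin ligase that activates RIG-I, was at 69.0, 43.7 and 52.9 CPM in the controls, against 193, 241 and 231 CPM in the TXNIP libraries, 4.02-fold higher on average (log2 2.01 ± 0.17; edgeR adjusted p = 6.83e-07).

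Among the interferon regulatory factors and STAT2, 4 of 7 rose, 1 fell and 2 did not pass (all tested genes: 30.6% higher, 33.9% lower). The 3 that rose most are known from induction of interferon or from its signalling. Irf7, the factor that amplifies type I interferon production, was at 0.110, 0.416 and 1.18 CPM in the controls, against 101, 94.9 and 88.2 CPM in the TXNIP libraries. It was 167-fold higher on average (log2 7.2 ± 0.35; edgeR adjusted p = 5.13e-09), and the log2 difference was 8.27 without control replicate 3, the highest control. Irf5, which acts downstream of Toll-like receptors and is best known from myeloid and B cells, was at 4.29, 4.02 and 3.98 CPM in the controls, against 89.0, 136 and 107 CPM in the TXNIP libraries. The controls of Irf5 were nearly equal, and the mean was 27.0-fold higher (log2 4.76 ± 0.20; edgeR adjusted p = 1.07e-09).

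Irf9, the DNA-binding partner of STAT2, was at 5.83, 6.45 and 7.18 CPM in the controls, against 90.1, 70.3 and 74.0 CPM in the TXNIP libraries, 12.0-fold higher on average (log2 3.58 ± 0.18; edgeR adjusted p = 4.92e-09). Stat2 was at 5.94, 8.39 and 10.8 CPM and at 30.1, 23.7 and 21.2 CPM, 2.98-fold higher (log2 1.56 ± 0.26; edgeR adjusted p = 0.000178). Irf9 and Stat2 were thus both higher, each without overlap between the groups.

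Irf1, which responds to interferon-gamma and activates its target genes, fell. It was at 99.2, 151 and 171 CPM in the controls and at 40.5, 45.8 and 36.9 CPM in the TXNIP libraries. Even the lowest control was more than double the highest TXNIP library, and the mean was 3.41-fold lower (log2 -1.77 ± 0.19; edgeR adjusted p = 6.11e-06). Irf2, which competes with IRF1 for DNA, was at 56.2, 27.4 and 39.6 CPM in the controls, against 59.8, 37.0 and 39.1 CPM in the TXNIP libraries, with a 95% interval of the log2 difference from -0.43 to 0.72 (edgeR adjusted p = 0.647). Irf3, the factor that starts interferon-beta transcription, was at 21.0, 32 and 25.4 CPM and at 18.4, 27.5 and 31.6 CPM, with an interval from -0.52 to 0.49 (edgeR adjusted p = 0.953). In Irf2 and Irf3 the libraries of both groups overlapped, and the sign of the difference turned when single libraries were left out.

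**Figure D4:**
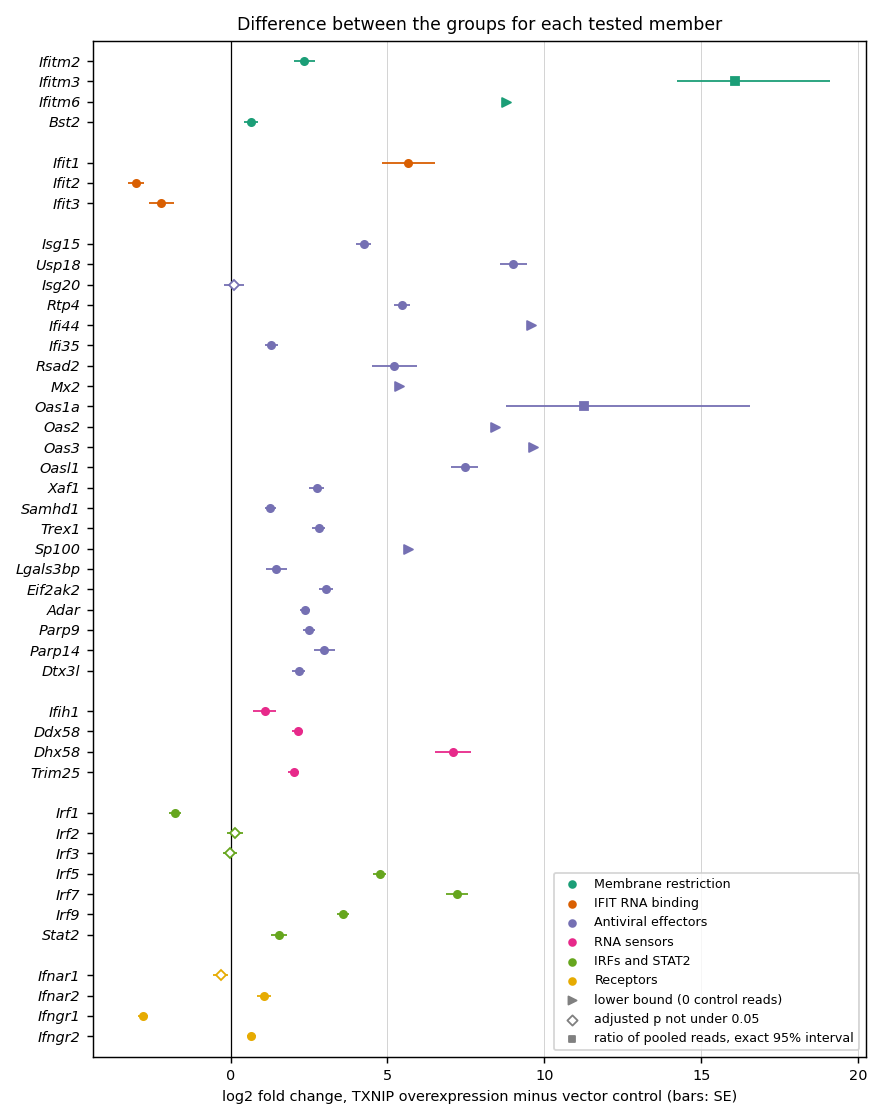
Log2 fold change of each tested member (x, TXNIP overexpression minus vector control), with circles and bars giving the edgeR estimate and its SE and open diamonds marking the 4 members that did not pass. Triangles are lower bounds for members with no control read, and squares with exact 95% intervals are ratios of pooled reads for Ifitm3 and Oas1a, which had 1 to 3 control reads. Ifit2, Ifit3, Irf1 and Ifngr1 lie left of 0.

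Of the 4 receptor chains 2 rose, 1 fell and 1 did not pass, beside 30.6% higher and 33.9% lower over all tested genes. The set is too small for its shares to be told apart from those. Ifnar1, Ifnar2 and Ifngr2 lie within 192.8 kb on chromosome 16 (91372783 to 91565623, GRCm38), and Ifngr1 lies on chromosome 10 (19591949 to 19610229). Ifnar1 was at 19.0, 18.6 and 16.7 CPM in the controls and at 10.8, 19.2 and 13.6 CPM in the TXNIP libraries. These overlapped, and the 95% interval of the log2 difference ran from -0.83 to 0.21 (edgeR adjusted p = 0.270). Ifnar2 was at 54.2, 28.5 and 31.4 CPM in the controls and at 87.9, 76.2 and 75.2 CPM in the TXNIP libraries, 2.10-fold higher on average without overlap (log2 1.08 ± 0.22; edgeR adjusted p = 0.00104), although 17.1% of the 75-base words at its end are shared with Gm21970.

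Ifngr1, the chain that binds interferon-gamma, was at 126, 119 and 123 CPM in the controls and at 14.9, 17.4 and 21.1 CPM in the TXNIP libraries. The libraries within each group were close together, and the mean was 6.88-fold lower (log2 -2.78 ± 0.16; edgeR adjusted p = 1.50e-08). Ifngr2, the second chain of the same receptor, was at 57.1, 50.2 and 46.4 CPM in the controls and at 79.0, 83.6 and 80.9 CPM in the TXNIP libraries, 1.58-fold higher on average (log2 0.67 ± 0.14; edgeR adjusted p = 0.000921). The 2 chains of the interferon-gamma receptor thus moved in opposite directions.

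Further genes of the pathway were read from lists sorted by role, 145 genes in all. Of 21 interferon ligand genes none had enough reads to be tested, and 18 had no read in any library. Ifnb1, the type I interferon that many cell types can make, had 0 reads in the controls and 1, 4 and 0 reads in the TXNIP libraries. Interferon transcripts were therefore at or near the limit of detection in both groups. Among 10 other receptor chains, kinases and factors, 8 were tested, 4 rose and 1 fell, a share called near the 64.5% of all tested genes. The kinases of the type I receptor did not pass: Jak1 was at 268 ± 10.3 and 237 ± 25.7 CPM (edgeR adjusted p = 0.208) and Tyk2 at 12.7 ± 3.80 and 18.0 ± 4.10 CPM (adjusted p = 0.111). Irf8, a factor of myeloid and B cells, had no control read and was at 52.6 ± 1.54 CPM in the TXNIP libraries, at least 680-fold higher. The interferon-lambda receptor chain Il28ra, which is known from epithelial cells, was at 13.4 ± 3.82 CPM in the controls and had no read in the TXNIP libraries, at least 133-fold lower.

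Of 9 inhibitors of interferon signalling, 4 rose and 2 fell, a share called near the 64.5% of all tested genes (30.6% higher, 33.9% lower). Ptpn6 (SHP-1), a phosphatase of blood cells, went from 3.34 ± 1.87 to 252 ± 19.8 CPM, and Socs3, which blocks receptor kinases, from 45.9 ± 13 to 113 ± 7.53 CPM. Irf2bp2 fell from 151 ± 21.1 to 53.3 ± 10.3 CPM. Ptpn11 (SHP-2), at 127 ± 16.3 and 89.2 ± 9.80 CPM, passed the test (edgeR adjusted p = 0.00780) but not without TXNIP replicate 3 (0.0517). Among 16 genes of the routes that induce interferon, 15 were tested, 11 rose and 1 fell. The DNA sensor cGAS (Mb21d1 in the files) had no control read and was at 105 ± 5.69 CPM in the TXNIP libraries, at least 1364-fold higher. Its partner STING (Tmem173) had 1 control read and was at 39.6 ± 5.35 CPM, a ratio of pooled reads of 1546 (exact 95% interval 277 to 61133), with a fitted log2 difference of 10.07 that became 11.88 without control replicate 1. Tlr7, an endosomal sensor of single-stranded RNA, had no control read and was at 40.1 ± 6.24 CPM, while Tlr3, the sensor of double-stranded RNA, fell from 10.3 ± 2.58 to 1.93 ± 1.62 CPM (log2 -2.39, and -3.34 without TXNIP replicate 2).

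Of 89 other interferon-stimulated genes 88 had an entry, 70 were tested, 43 rose and 11 fell. Tap2, part of the peptide transporter for antigen presentation, went from 0.557 ± 0.101 to 53.3 ± 3.04 CPM, Ifi203 from 0.572 ± 0.116 to 93.3 ± 21.8 CPM and Slfn5 from 1.05 ± 0.337 to 65.3 ± 8.76 CPM. Those that fell included Plscr1, a phospholipid scramblase, from 78.9 ± 13.2 to 6.33 ± 2.19 CPM, and Apobec3, a cytidine deaminase that restricts retroviruses, from 137 ± 29.9 to 27.6 ± 4.95 CPM. Lgals9 fell from 135 ± 3.06 to 65.2 ± 2.19 CPM. Ly6a (Sca-1), a surface marker of stem and progenitor cells, fell from 36.4 ± 6.0 CPM to 11 reads, all in TXNIP replicate 2, and its log2 difference of -6.58 became -11.72 without that library and -5.94 without TXNIP replicate 3. Over all 145 listed genes 102 were tested, 62 rose, 15 fell and 25 did not pass, beside the shares of 30.6% higher and 33.9% lower among all tested genes. Those 145 genes too were chosen with earlier results of these data known. These lists and the members were read in the same libraries as the markers of macrophages and leukocytes, all of which rose.

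**Figure D5:**
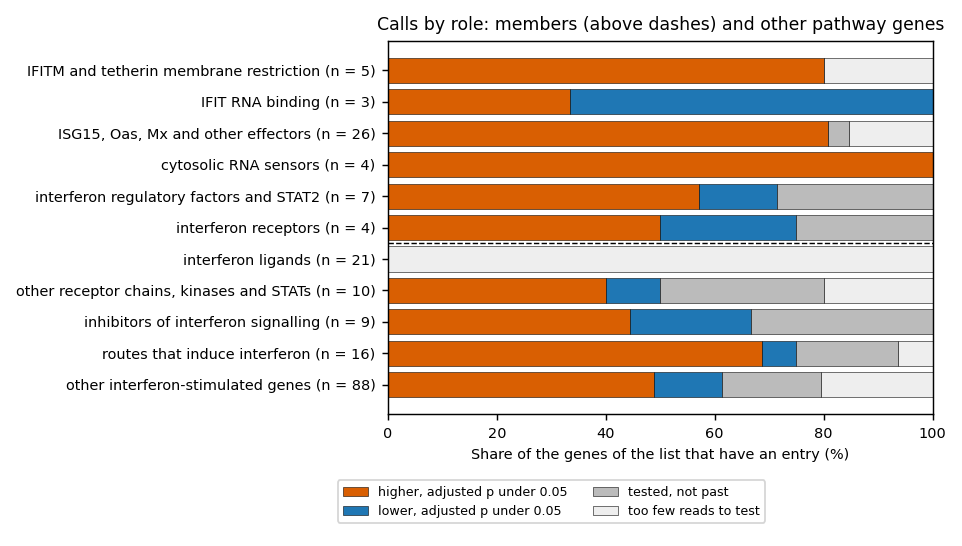
Share (%) of the genes of each list that were higher, lower, not past an adjusted p of 0.05, or too low to test, for the 6 sets of members (above the dashed line) and the 5 lists of other pathway genes; n is the number with an entry. The ligands are all in the untested class, and the IFIT set holds the largest share of lower calls among the 6 sets of members.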

How the data were processed

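The authors deposited read counts per gene for each of 6 libraries, whole numbers that were not normalized, per the files' values. Per the submitters' processing notes, Bowtie2, bedtools and mm10 were used, with no version or role stated; strand use in counting was not stated. The labels' protocols state Trizol extraction and the Lexogen QuantSeq kit, and the design text states single-end reads of 75 bases. Counts were analysed with edgeR 4.0.16 in R 4.3.3 (filterByExpr, trimmed mean of M-values scaling, robust quasi-likelihood fit, group as the only term). All 12088 genes that passed the filter were tested, two-sided, and p-values were adjusted over all of them by Benjamini-Hochberg with a threshold of 0.05. Groups come from the treatment label. The members and lists were chosen with earlier results of these data known. Every member is named; of each other pathway list, the 4 genes with the smallest adjusted p in each direction could be named, with Jak1, Tyk2 and Ifnb1 named whatever their value (another gene of this rule is not reported here), and Ifit3b, Atrip and Oas1g as copies or overlapping neighbours. Lower bounds set a group without reads to 3 reads over the group, and fold changes are ratios of mean CPM. Irf7, Irf5, Adar, Parp9, Dhx58 and Usp18 overlap a gene on the other strand near their 3′ end, so their reads are uncertain without strand. Shared 75-base words were counted exactly over the last 500 bases of GENCODE M21 transcripts. Promoter windows are RefSeq's. DESeq2 1.42.0 and limma 3.58.1 served as alternatives, beside other scalings, filters, thresholds and leaving out each library. On simulated counts for 11602 genes of this comparison, the fit recovered 20% of 1.5-fold, 68% of 2-fold and 100% of 4-fold changes, and 6.58% of its calls were unchanged genes. The simulation used the control means, the same dispersion for every gene, few changed genes and no outlying replicate. Its rates therefore need not hold for the real libraries. Protein sequences were not used here.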

Additional observations from a re-analysis of the deposited data

How the results depend on the processing

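The 36 higher and 4 lower members came out in the same numbers under other scaling factors, library size alone, limma-voom, no robust estimation, omission of the ribosomal entry Rn45s and summed symbols. With no filter and with DESeq2, 39 were higher and 4 lower, with Ifitm1, Oasl2 and Gbp3 added. A floor of 5 CPM in 3 libraries left 34 higher, because Mx2 and Sp100 were not tested, and a mean of at least 5 CPM left 33, with Ifit1 also untested. An adjusted p of 0.01 left 34 higher (without Bst2 and Ifih1), and a minimum fold of 1.5 left 33 (also without Ifngr2). Leaving out each library gave 36 to 39 higher and 4 lower. A minimum fold of 1.5 cut the genes called higher over the whole table from 3699 to 2382. A search of the gene strand alone cut the members with an ISRE core from 16 (39%) to 9 (22%). The share of all genes with a core fell from 3.99% to 2.06% in the same search. Within 200 bases before the start, 10 of the 41 members (24.4%) held the core, against 2.65% of all genes. The gamma-activated site was there in 14.6% of the members, against 6.38% of all genes. Differences that did not pass changed sign: Irf3 from -0.02 to 0.010 with upper-quartile factors, and Isg20 from 0.11 to -0.0683 with limma-voom. On leaving out single libraries or both replicate 1 libraries, Irf2 ranged from -0.0917 to 0.43, Irf3 from -0.18 to 0.18 and Isg20 from -0.43 to 0.44. The causes were not tested. Scalings moved no member by more than 0.076 (log2), while the median of all genes was -0.038 in the reported fit and -0.108 with library size alone. Same-numbered libraries of both groups deviated together weakly (correlations 0.084, 0.034 and 0.045), and differently numbered ones had correlations from -0.058 to 0.033. Whether a shared number marks a shared batch was not tested. The replicate block left 36 higher and 4 lower members and put Isg20 at -0.0363. Depth limits the genes with few control reads, whose fitted sizes turn on single libraries.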

Other observations

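Control replicate 1 was the highest control for 21 of the 44 tested members (47.7%), against 39.7% of all tested genes, and TXNIP replicate 1 was the highest TXNIP library for 21 of 44 (47.7%), against 36.6%. Chrnb2, which overlaps Adar on the other strand near its 3′ end, was at 0.0829 ± 0.0732 CPM in the controls and 1.62 ± 0.399 CPM in the TXNIP libraries. It was called higher (edgeR adjusted p = 0.000989). Tnpo3, which overlaps Irf5 in the same way, was at 335 ± 24.4 and 300 ± 46.7 CPM and did not pass the test. Phrf1, which overlaps Irf7, was at 93.2 ± 3.96 and 128 ± 21.1 CPM and was called higher (edgeR adjusted p = 0.0131).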
